A study of Mus musculus with 4 samples.

Results

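The genes that move zinc across membranes and buffer it inside cells were evaluated in basal and luminal cells of the distal tips of the mouse prostate during postnatal growth. The group held 31 of the 49671 genes in the deposited table and was defined by gene family and name. It comprised all 14 Slc39a genes (ZIP transporters), all 10 Slc30a genes (ZnT transporters), the 4 metallothioneins Mt1 to Mt4, the zinc sensor Mtf1, the divalent metal transporter Slc11a2 and the vesicle zinc transporter Tmem163. Bulk RNA-seq was performed on basal cells (EpCAM high, CD49f high; replicates 1 and 3) and on luminal cells (EpCAM high, CD49f low; replicates 3 and 2) of untreated CD-1 mice at postnatal days 10 to 13. The study describes the basal cells of the tips as multipotent and the luminal cells as derived from them. Both groups came from the ventral lobe, and cells positive for CD45, CD31 or CD140a had been sorted away. How animals were divided among the libraries is not given in the sources used here, so p-values measure only the spread between these 4 libraries, which may be partly technical.

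Zinc has no redox activity of its own but is held by a large share of enzymes and transcription factors, so its free level in the cytosol is kept very low. ZIP transporters bring zinc into the cytosol from outside the cell or from organelles, ZnT transporters move it out of the cytosol, and metallothioneins bind it through clusters of cysteines. When zinc rises, the transcription factor MTF1 binds metal response elements in the promoters of metallothionein genes and of Slc30a1. The prostate is known as one of the most zinc-rich soft tissues, and zinc in its secretory epithelium has long been linked to citrate secretion.

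Because metal response elements are the best known control sequence of these genes, their core was looked for in the 250 bases before each annotated start in RefSeq (GRCm38.p6). The motifs searched were TGCACNC and TGCGCNC on both strands. They differ at 1 fixed base, so both cannot match the same strand at the same place, and no other motif was searched. Windows were found for 26 of the 31 genes, in 31 windows, of which 14 held a match (45.2%), whereas 21.4% of all 32851 windows of this length held at least 1 and 1.26% held 3 or more. Slc30a10 and Mt2 held 3 matches each, Slc30a2 and Slc30a4 held 2, and Mt1, Slc30a1, Slc30a5, Slc39a3 and Mt4 held 1. Of the genes with several annotated starts, Slc39a8, Slc30a3 and Slc39a5 held 1 match at 1 start, and Slc39a11 held 1 at each start. The windows of Mt1 and Mt2 are shown because these genes are the textbook targets of MTF1 and had the highest levels per exon length among the members. The windows of both annotated starts of Slc39a8 are shown because it was the only member with a limma adjusted p under 0.05. Capitals mark the matches, which are descriptions of letters and not measured binding sites.
Mt1, chr8:94178839-94179088, plus strand: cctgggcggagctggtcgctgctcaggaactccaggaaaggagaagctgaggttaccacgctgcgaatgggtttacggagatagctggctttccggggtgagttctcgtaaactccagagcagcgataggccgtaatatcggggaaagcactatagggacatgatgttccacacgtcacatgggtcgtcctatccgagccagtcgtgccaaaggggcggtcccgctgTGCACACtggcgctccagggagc
Mt2, chr8:94172368-94172617, plus strand: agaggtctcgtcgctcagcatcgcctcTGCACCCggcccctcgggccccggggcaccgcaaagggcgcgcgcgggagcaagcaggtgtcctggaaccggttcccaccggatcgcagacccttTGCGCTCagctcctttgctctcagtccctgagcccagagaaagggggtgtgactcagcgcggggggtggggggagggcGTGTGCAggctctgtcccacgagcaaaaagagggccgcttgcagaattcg
Slc39a8, first start, chr3:135825029-135825278, plus strand: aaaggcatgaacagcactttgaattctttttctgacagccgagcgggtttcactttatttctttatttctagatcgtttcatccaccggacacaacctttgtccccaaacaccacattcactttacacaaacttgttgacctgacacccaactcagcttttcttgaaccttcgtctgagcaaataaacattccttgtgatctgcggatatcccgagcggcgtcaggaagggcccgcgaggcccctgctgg
Slc39a8, second start, chr3:135825407-135825656, plus strand: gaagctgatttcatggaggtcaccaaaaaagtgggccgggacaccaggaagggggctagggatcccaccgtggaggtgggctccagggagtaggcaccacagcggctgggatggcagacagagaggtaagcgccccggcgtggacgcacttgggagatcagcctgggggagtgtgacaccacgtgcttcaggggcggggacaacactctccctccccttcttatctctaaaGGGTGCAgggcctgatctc

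Counting the last base before the start as -1, the matches of Mt2 began at -223, -128 and -50 and the match of Mt1 at -23. Further matches of Mt1 (2) and Mt2 (1) reached into the 50 bases after the start, which are not shown. The first start of Slc39a8, which is where the GENCODE gene begins, had no match, and the second start had 1 at -19.

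The authors scaled gene counts to an equal total per library before depositing them. On this scale 1 read was worth 6.26 (basal replicate 1), 6.49 (basal replicate 3), 19.4 (luminal replicate 3) or 31.2 (luminal replicate 2). The libraries thus held between 643268 and 3194291 reads on genes, both luminal libraries were the shallower ones, and depth and cell type cannot be told apart. Composition differed in the same way, with 76.0% and 74.7% of the basal and 57.3% and 64.2% of the luminal values on nuclear protein-coding genes, and 2.96% and 4.41% against 8.64% and 6.32% on mitochondrial genes. The effect of rescaling to nuclear protein-coding genes is given where it turned a direction. It shifts the log2 fold changes of all genes nearly alike, so it can turn only small ones. The sort was evident in lineage markers, as 7 of 8 basal markers (Krt5, Krt14, Trp63 and others) were lower in luminal cells and 2 of 8 luminal markers (Krt19 and Cldn3) were higher at a limma adjusted p under 0.05. Past the 2-fold threshold were all 8 basal and 6 luminal markers. The stromal marker Pdgfra, which encodes CD140a, was nevertheless present at 3307 and 4144 in basal and 2575 and 8383 in luminal replicates 3 and 2. All 8 fibroblast markers were detected in every library, with summed values from 102044 to 210838 in basal cells and from 72744 to 200938 in luminal cells, and all 6 smooth muscle markers summed to between 9984 and 61015, both extremes being luminal. The other marker lists were smaller, with sums of 445 to 1572 (endothelial), 833 to 3394 (immune, most of it Cd3e in every library), 0 to 561 (neuroendocrine, highest in luminal replicate 3), 32 to 280 (erythrocyte) and 93 to 1019 (nerve and glia). Seminal vesicle and secretory markers summed to 88 and 65 in basal and 2187 and 2867 in luminal cells, of which 88 and 26 against 1878 and 2805 were the prostate secretory gene Pbsn.

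Of the 31 genes, 24 passed the filter on low values (every library of at least 1 group at 10 or more, with a group average of 20 or more) and were compared with limma on log2(value + 1), with Benjamini-Hochberg adjustment over all 18737 genes that passed. For genes with few reads, fold changes on this scale depend on the pseudocount, and that of Slc30a10 was 4.79 with a pseudocount of 1 and 3.04 with a pseudocount of 10. Only Slc39a8 had an adjusted p under 0.05, against 0.694% of all genes tested. At an unadjusted p under 0.05 there were 7 members, against 18.5% of all genes, and their adjusted p ranged from 0.0354 to 0.258. The average was at least 2-fold higher in luminal cells for 3 members (Slc39a8, Slc30a10 and Slc30a2), against 18.3% of all genes tested, and at least 2-fold higher in basal cells for 3 members (Slc39a10, Slc39a14 and Slc39a4), against 16.3%. Slc30a10 and Slc30a2 passed the filter only through the luminal group, where they were high, and Slc30a10 was also among the 7 above. With the filter required in both groups the luminal 2-fold count was 1. After rescaling to nuclear protein-coding genes 7 members were past 2-fold in luminal and 3 in basal cells, and without luminal replicate 3 these counts were 8 and 5. The shares of all genes past 2-fold were not computed under that filter or these settings, so 18.3% and 16.3% are no comparison for them. The rescaling and the loss of luminal replicate 3 also moved the whole table towards luminal cells. Its medians were 0.22 and 0.16, beside -0.10 in the main comparison. Both luminal libraries lay above both basal libraries for 8 members, against 23.6% of all genes, and both basal libraries lay above both luminal libraries for 7 members, against 27.3%. Groups overlapped for the other 9 members. The 8 included Slc30a10 and Slc30a2, and with the filter required in both groups the counts were 6 luminal and 7 basal. The shares of all genes without overlap under that filter were not computed. The members' median log2 fold change was 0.09, beside -0.10 for all genes tested. With the filter required in both groups these medians were -0.11 and -0.08. In the main comparison the members' own shares were 12.5% past the fold threshold in each direction and 33.3% and 29.2% without overlap. These lay near the shares of the whole table.

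**Figure D1:**
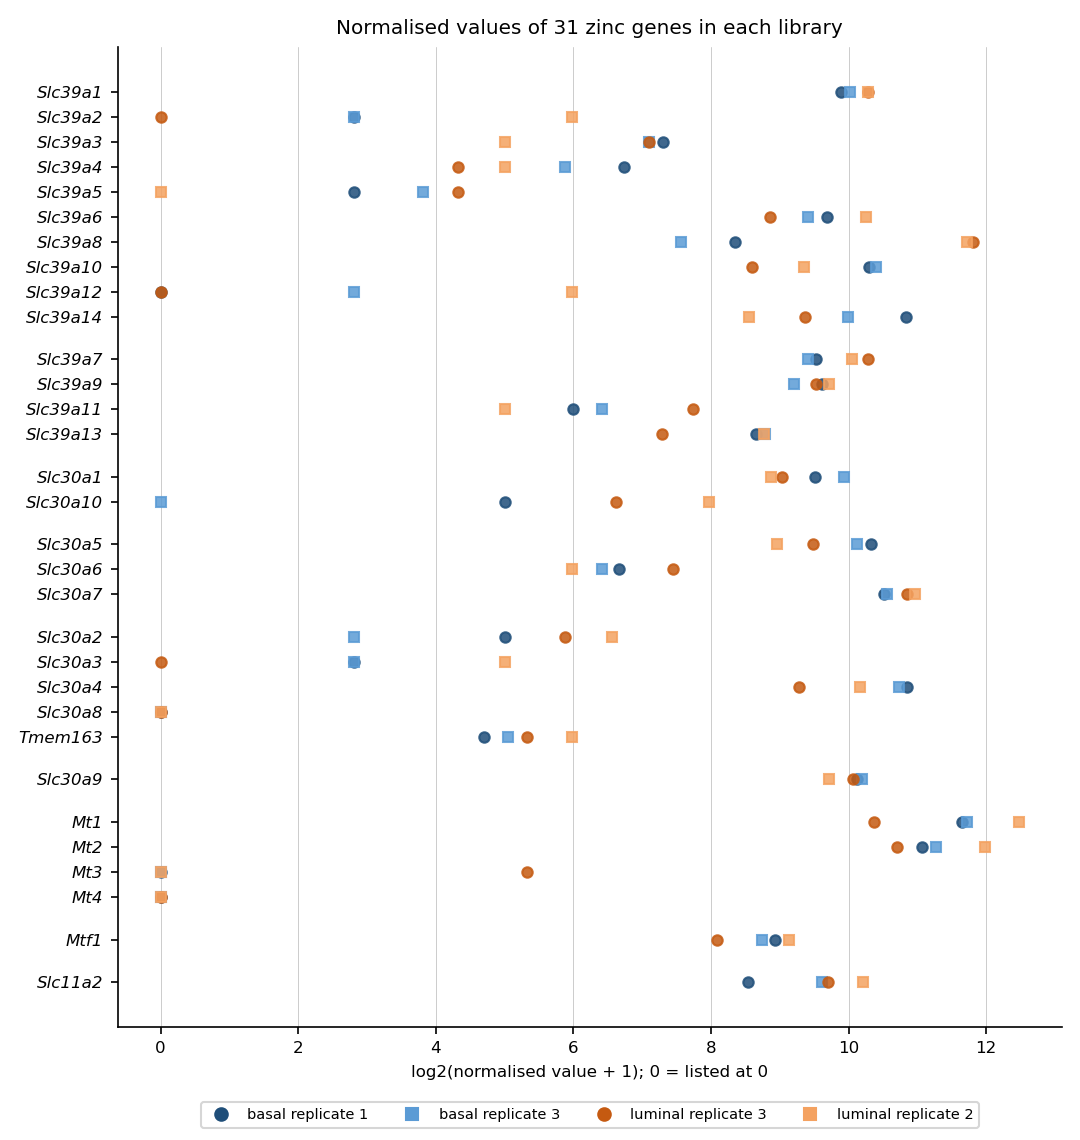
Normalised values of all 31 genes in the 4 libraries on a log2(value + 1) axis, grouped by role from ZIP importers at the top to Slc11a2 at the bottom, with basal libraries in blue and luminal libraries in orange. Slc39a8 is the member whose groups lie farthest apart without a library near 0, and the highest points are Mt1 (5703) and Mt2 (4051) in luminal replicate 2, with luminal replicate 3 below the basal pair for both.

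The clearest difference was in Slc39a8, which encodes ZIP8, an importer of zinc and manganese at the cell surface that also takes up iron and cadmium. The gene lies at chr3:135825279-135888572 on GRCm38. Its normalised value was 326 and 188 in basal replicates 1 and 3 and 3601 and 3366 in luminal replicates 3 and 2. Both luminal libraries were thus more than 10 times either basal library, and within each group the libraries were within 2-fold of each other. The basal average was 257 ± 97.6 and the luminal average 3484 ± 166 (SD, n = 2), which is 13.6-fold higher, with a log2 fold change of 3.81 ± 0.35 (SE; 95% confidence interval 2.92 to 4.69) and a limma adjusted p of 0.0354. These values rest on 81 recovered reads in the basal and 294 in the luminal libraries, a ratio of read rates of 13.6 with an exact binomial interval of 10.6 to 17.6 that covers counting error only. The adjusted p was 1.58e-04 with edgeR and 1.52e-12 with DESeq2 on the recovered reads. It was 0.228 without the filter on low values, 0.0509 without the trended prior, 0.177 without luminal replicate 3 and 0.127 without luminal replicate 2, where the log2 fold change was still 3.76 and 3.86. With 1 luminal library these fits rest on the spread of the basal pair, moderated by the trended prior over all genes. The lone library is assumed to vary like the basal pair. Among the genes called higher in luminal cells, 26, itself included, had a log2 fold change at least as large. As in any bulk sample, a difference in the number of cells that express a gene and a difference in RNA per cell cannot be told apart.

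None of the other importers of the cell surface and endosomes passed the adjusted test. Slc39a14 (ZIP14), the closest relative of ZIP8 with an overlapping set of metals, had values of 1822 and 1020 in basal and 658 and 374 in luminal replicates 3 and 2. Its groups did not overlap, and its average was 2.75-fold higher in basal cells (log2 fold change -1.46 ± 0.44; limma adjusted p = 0.169). Slc39a10 (ZIP10), a zinc importer repressed by MTF1, had values of 1259 and 1345 in basal and 387 and 654 in luminal cells. Again the groups did not overlap, and the average was 2.50-fold higher in basal cells (log2 fold change -1.37 ± 0.35; limma adjusted p = 0.114). Slc39a1 (ZIP1), a broadly expressed surface importer, was nearly level, with 952 and 1033 in basal and 1239 and 1247 in luminal cells (log2 fold change 0.33 ± 0.25; limma adjusted p = 0.518). Its luminal values lay just above its basal values, and 21.8% of its 50-base words also occur in the pseudogene Slc39a1-ps, which was at 39 or less in every library. Slc39a6 (ZIP6) had 820 and 676 in basal cells, and its luminal libraries lay on either side of these at 465 and 1215.

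The remaining surface importers were sparse. Slc39a3 was at 157 and 136 in basal and at 136 and 31 in luminal cells, the last being 1 read. Slc39a4, the main intestinal zinc importer, had 17 and 9 reads in the basal libraries and 1 read in each luminal library, and the ratio of read rates, luminal over basal, was 0.287 with an exact interval of 0.0330 to 1.15. Both basal libraries lay above both luminal libraries, but the interval, which covers counting error only, includes 1 (log2 fold change -1.65 ± 0.94; limma adjusted p = 0.412). Slc39a2, Slc39a5 and Slc39a12 did not pass the filter, and none of them had more than 2 reads in any library. 

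To compare importers with each other, values were divided by the length of each gene's merged exons, since longer transcripts give more reads. Merged exons join all annotated isoforms, so this length can exceed that of the transcripts expressed, and ranks and shares depend on it. It was 7664 bases for Slc39a8 and 2364 for Slc39a1. Undivided, the luminal average was 3484 for Slc39a8 and 1243 for Slc39a1. On this per-length scale, Slc39a8 made up 3.85% and 2.44% of the summed level of the 10 surface importers in basal replicates 1 and 3, and 36.6% and 30.0% in luminal replicates 3 and 2. Slc39a1 made up between 36.0% and 43.4% in all 4 libraries and was the most abundant importer in each group by its average. Slc39a10 held 18.7% and 21.9% in the basal libraries and 4.95% and 7.33% in the luminal ones, and Slc39a14 held 15.7% and 9.60% against 4.86% and 2.42%. By its average over a group, Slc39a8 ranked 18 among the 31 members per length in basal cells and 4 in luminal cells, behind Mt2, Mt1 and Slc39a1.

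**Figure D2:**
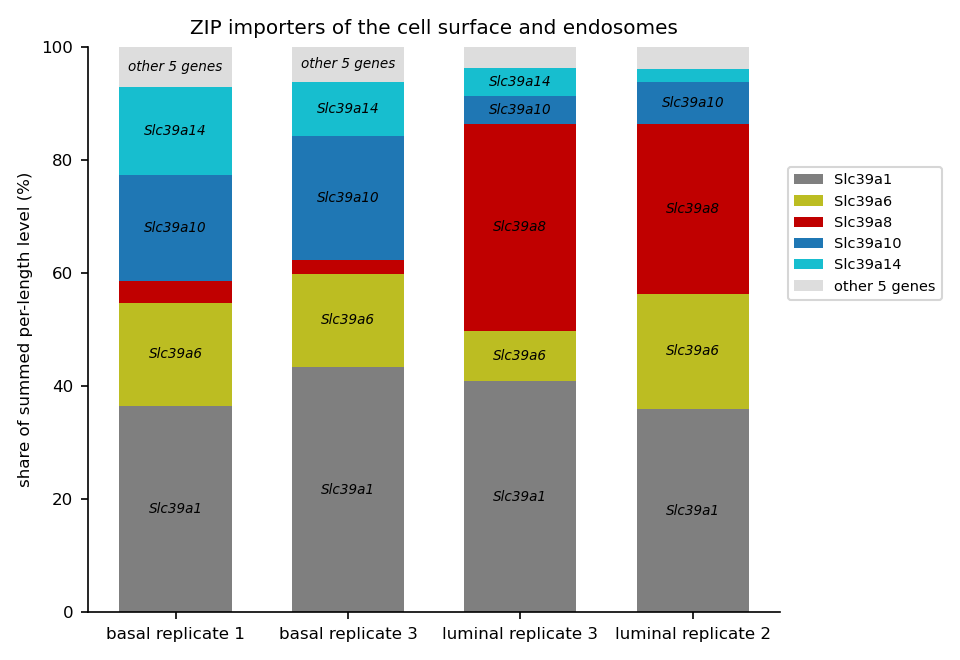
Stacked bars of the share (%) of the summed per-length level that each surface and endosomal ZIP importer held in each library, with the 5 sparse members pooled as other. The Slc39a8 segment is 3.85% and 2.44% in the basal bars and 36.6% and 30.0% in the luminal bars, while the Slc39a1 segment stays between 36.0% and 43.4%.

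The ZIP transporters of internal membranes, which release zinc from organelles into the cytosol, showed smaller differences. Slc39a7 (ZIP7), which releases zinc from the endoplasmic reticulum, was at 733 and 676 in basal and 1239 and 1060 in luminal cells. Its luminal values were all above its basal values, with a log2 fold change of 0.70 ± 0.27 and a limma adjusted p of 0.258. However, 80.7% of its exon bases are shared with the overlapping gene Gm20427 on the same strand. Gm20427 was at 958 and 922 in basal and 1530 and 1309 in luminal cells. How reads in the shared bases were counted or left out is not given in the sources used here, so the level of Slc39a7 is uncertain. Slc39a9 (ZIP9) overlapped between groups, with values between 591 and 841. Slc39a13 (ZIP13) had 401 and 442 in basal cells, and 155 and 436 in luminal replicates 3 and 2. Slc39a11 (ZIP11) had 63 and 84 in basal cells, and its luminal values of 213 and 31 lay on either side.

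Among the exporters, Slc30a1 (ZnT1), the main route of zinc out of the cell and a known target of MTF1, was at 726 and 974 in basal and 523 and 467 in luminal cells. Both basal libraries were higher, with a log2 fold change of -0.77 ± 0.32 and a limma adjusted p of 0.285, and 8.92% of its exon bases overlap a gene on the other strand. Slc30a10, better known as a manganese exporter, had the largest log2 fold change of all members in the main fit (4.79 ± 1.83, limma adjusted p = 0.255). It rested on 5 and 0 reads in basal and 5 and 8 reads in luminal cells. Its log2 fold change was below that of Slc39a8 with a pseudocount of 10 (3.04 against 3.76), edgeR (3.32 against 3.79) and DESeq2 (3.48 against 3.81). Its ratio of read rates was 9.71 with an exact interval of 3.25 to 34.8, which covers counting error only. Its standard error was the largest of the 24 fitted members.

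The ZnT transporters of the early secretory pathway load zinc into enzymes on their way to the surface. Slc30a5 (ZnT5) works as a pair with Slc30a6 (ZnT6). Slc30a5 was at 1278 and 1117 in basal and 716 and 499 in luminal cells, a 1.97-fold difference in averages that lay just short of the 2-fold threshold (log2 fold change -0.998 ± 0.31; limma adjusted p = 0.181). Its groups did not overlap, whereas its partner Slc30a6 had 100 and 84 in basal cells and luminal values of 174 and 62 on either side. Slc30a7 (ZnT7), which serves the same pathway alone, was the most abundant of these 3 in luminal cells per length and had 1459 and 1507 in basal and 1839 and 1994 in luminal cells. Its luminal values were slightly and in both libraries above its basal values (log2 fold change 0.37 ± 0.23; limma adjusted p = 0.440), with 16.01% of its exon bases overlapping genes on the other strand. Slc30a7 made up 14.3% and 14.9% of the summed per-length level of the Slc30a family in basal cells and 25.4% and 25.1% in luminal cells, while the family sum itself was 919 and 911 in basal and 652 and 715 in luminal cells.

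Of the vesicle transporters, only Slc30a4 (ZnT4), which moves zinc into endosomes and secretory vesicles, was abundant. It had 1841 and 1702 in basal and 620 and 1153 in luminal replicates 3 and 2, and all basal values lay above all luminal values. The averages differed 2.00-fold, although the ratio of 0.5004 stayed just outside the threshold of 0.5 (log2 fold change -1.07 ± 0.36; limma adjusted p = 0.213). Slc30a4 was the largest Slc30a member per length in basal cells, at 36.5% and 34.1% of the family, and held 17.3% and 29.4% in luminal replicates 3 and 2. Slc30a2 (ZnT2), the vesicle transporter needed for zinc in milk, had 5 and 1 reads in basal and 3 reads in each luminal library, a ratio of read rates of 3.73 with an exact interval of 0.998 to 13.97 for counting error only. Tmem163 had values between 25 and 62. Slc30a3, the transporter of synaptic vesicles, did not pass the filter, with 1 read in 3 libraries and 0 in luminal replicate 3, and Slc30a8, the transporter of insulin granules, was listed at 0 in all 4 libraries. Slc30a9, a mitochondrial zinc transporter, had 1115 and 1176 in basal and 1065 and 841 in luminal cells (log2 fold change -0.27 ± 0.27; limma adjusted p = 0.607), so its basal values were marginally higher, but its direction turned (0.03) when values were rescaled to nuclear protein-coding genes.

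Slc11a2 (DMT1), which carries iron and other divalent metals, had 369 and 779 in basal and 833 and 1184 in luminal cells. Its groups did not overlap, but the basal libraries differed more than 2-fold from each other and the limma adjusted p was 0.370.

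**Figure D3:**
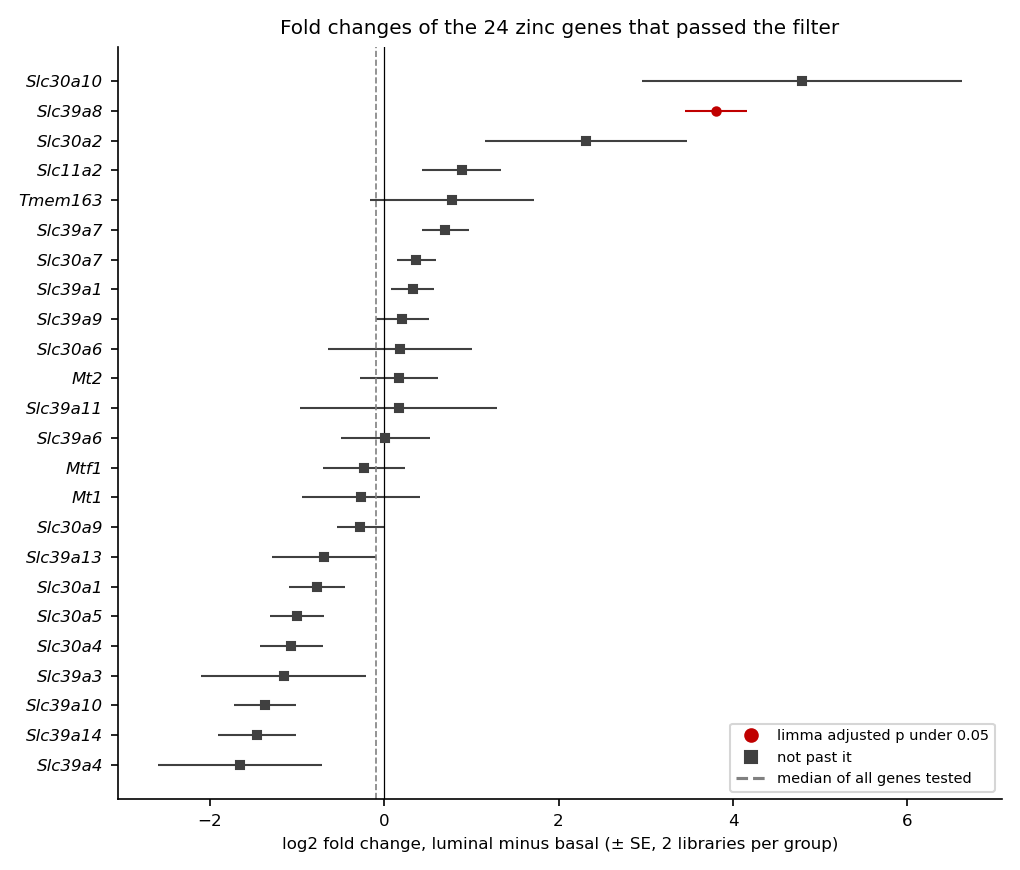
log2 fold changes (luminal minus basal) with their standard errors for the 24 members that passed the filter, the dashed line marking the median of all genes tested (-0.10). Slc39a8 (red) combines a change of 3.81 with an error of 0.35, while Slc30a10 has a larger value of 4.79 with an error of 1.83.

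Mt1 and Mt2 had the highest levels per exon length of all members in both cell types by their group averages, and for both the spread between the luminal libraries exceeded the difference between the averages of the cell types. Mt1 had 3194 and 3391 in basal cells, and 1317 and 5703 in luminal replicates 3 and 2. Mt2 had 2154 and 2475 in basal cells, and 1665 and 4051 in luminal replicates 3 and 2. For both genes luminal replicate 3 was the lowest and luminal replicate 2 the highest of the 4 libraries, on either side of the basal pair.

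The log2 fold change was -0.26 ± 0.67 for Mt1 (95% confidence interval -1.96 to 1.43; limma adjusted p = 0.855) and 0.17 ± 0.45 for Mt2 (-0.95 to 1.29; limma adjusted p = 0.859). These intervals leave room for more than a 2-fold difference in either direction for Mt1. The sign for Mt1 was positive (0.05) after rescaling to nuclear protein-coding genes and by quantile normalisation, edgeR and DESeq2. It was 0.79 without luminal replicate 3 and -1.32 without luminal replicate 2, so no direction can be given. Per length, the metallothioneins summed to 6227 and 6931 in basal and to 3925 and 11467 in luminal replicates 3 and 2. Mt2 held 58.8% to 72.1% of each sum and Mt1 nearly all of the rest. These shares depend on the lengths used, 588 bases for Mt2 and 1246 for Mt1, whose merged exons cover its whole gene. Undivided, Mt1 was above Mt2 in every library but luminal replicate 3. Mt2 is uncertain in 1 respect, since 73.5% of its exon bases overlap Gm45774 on the other strand, and whether strand was used in counting is not given in the sources used here.

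The luminal libraries differed 4.33-fold in Mt1 and 2.43-fold in Mt2. Among the 3531 genes tested with an average of 1000 or more, 2.10% differed at least as much as Mt1 in this direction, 7.90% at least as much as Mt2, and the median was 1.07. Mtf1, the sensor, also had its extremes in the luminal libraries, with 271 in luminal replicate 3, 429 and 488 in basal cells and 561 in luminal replicate 2 (log2 fold change -0.23 ± 0.47; limma adjusted p = 0.812; 0.08 after rescaling to nuclear protein-coding genes). The summed fibroblast markers were 72744 in luminal replicate 3 and 200938 in luminal replicate 2, and the smooth muscle markers 9984 and 61015, so both were lower in the library with the lower metallothioneins. Between basal replicates 1 and 3 the fibroblast sum went from 102044 to 210838 while Mt1 went from 3194 to 3391. The part of these markers in the metallothionein values was not tested. Mt3, the brain form, was at 39 in luminal replicate 3, which is 2 reads, and at 0 elsewhere, and Mt4, the form of stratified epithelium, was listed at 0 throughout.

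**Figure D4:**
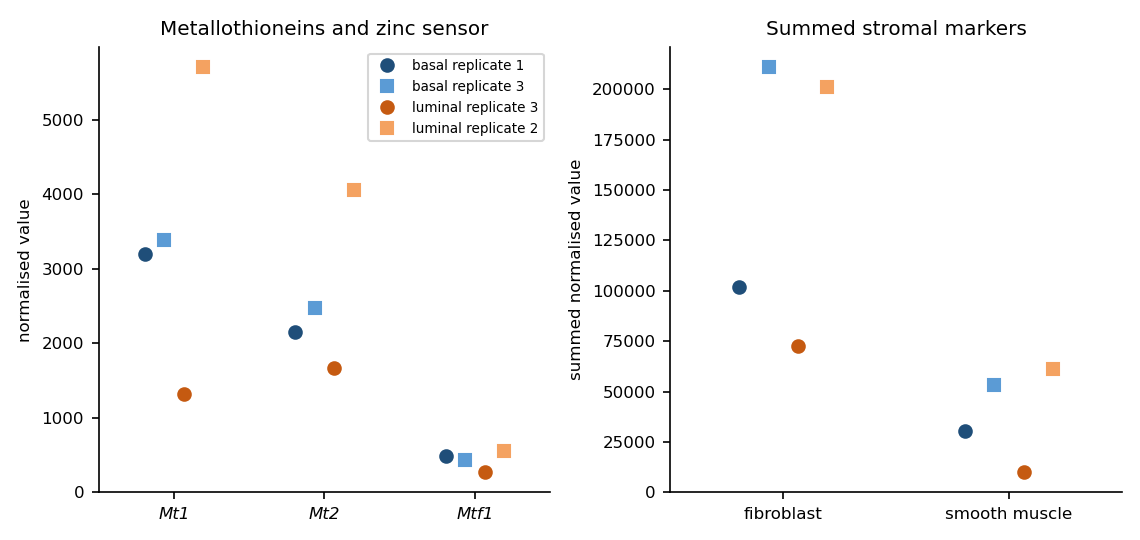
Left, normalised values of Mt1, Mt2 and Mtf1 in each library. Right, summed normalised values of 8 fibroblast and 6 smooth muscle markers in the same libraries. In all 3 genes luminal replicate 3 is lowest and luminal replicate 2 highest, with the basal replicates between.

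Genes that respond to zinc through MTF1 were examined together. This list held Mt1, Mt2, Slc30a1, Slc39a10, Gclc (glutathione synthesis) and Slc40a1 (the iron exporter ferroportin), of which the first 4 are members. None of the 6 passed the adjusted limma test, and both basal libraries were higher for 3 (27.3% of all genes tested) and both luminal libraries for 1 (23.6%). The median log2 fold change was -0.39, over a list with no common direction, since Slc39a10 is repressed and the others are induced. The gene higher in both luminal libraries was Slc40a1, with 426 and 156 in basal and 1530 and 623 in luminal replicates 3 and 2 (log2 fold change 1.92 ± 0.67; limma adjusted p = 0.220). Gclc, at 1090 and 903 in basal and 620 and 779 in luminal cells, was among the 3 that were higher in basal cells, besides Slc30a1 and Slc39a10.

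Other metals were then compared. Of 20 iron-handling genes, 19 passed the filter, and 2 fell in luminal cells at a limma adjusted p under 0.05 while none rose, against 0.694% of all genes tested in either direction. Both basal libraries were higher for 10 of them (27.3% of all genes tested) and both luminal libraries for 6 (23.6% of all genes tested; Slc40a1, Steap3, Ncoa4, Slc25a37, Slc25a28 and Hfe), and the list's median log2 fold change was -0.50. Cp, which encodes the ferroxidase ceruloplasmin, had 17110 and 12582 in basal and 232 and 499 in luminal cells, 40.6-fold lower on average (limma adjusted p = 0.0274). Steap4, a metalloreductase, had 6438 and 3482 in basal and 252 and 405 in luminal cells, 15.1-fold lower (limma adjusted p = 0.0410). The groups lay far apart for both genes. Lcn2, which binds iron-carrying siderophores, had 1015 and 968 in basal and 174 and 62 in luminal cells (limma adjusted p = 0.0688).

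Of 12 copper-handling genes, 11 passed the filter, none had a limma adjusted p under 0.05, and the median was -0.14. The largest fold changes among its abundant members were those of Cox17 (0.89 ± 0.76), Atp7a (0.61 ± 0.25) and Commd1 (-0.58 ± 0.34). Of the 3 genes for manganese and calcium transport in the Golgi, 1 passed (0.694% of all genes tested): Atp2c2, an ion pump of secretory epithelia, rose from 44 and 52 in basal to 1239 and 810 in luminal cells, a 21.3-fold difference (limma adjusted p = 0.0464). Its relative Atp2c1 was at 2424 and 1715 in basal and 1743 and 1184 in luminal cells with overlapping groups, and Tmem165 was at 639 and 812 against 310 and 374 (limma adjusted p = 0.190). The list's median was -0.50.

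Zinc-dependent enzymes, most of them of the secretory pathway or cell surface, differed in direction from gene to gene. Of 12 genes 11 passed the filter, with 1 at a limma adjusted p under 0.05 (0.694% of all genes tested) and a median of -0.47. This gene was Mme, which encodes the zinc peptidase neprilysin, with 1559 and 2105 in basal and 15742 and 12964 in luminal cells, a 7.83-fold rise (limma adjusted p = 0.0334). The carbonic anhydrases Car12 and Car13 had larger averages in basal cells, with 1296 and 1117 against 194 and 93 for Car12 (limma adjusted p = 0.0637) and 1159 and 624 against 97 and 156 for Car13 (limma adjusted p = 0.0688). Car2, another carbonic anhydrase, went the other way with 319 and 195 against 1491 and 686 (limma adjusted p = 0.109), as did the peptidase Ace with 457 and 611 against 4395 and 1963 (limma adjusted p = 0.0688). The groups overlapped for none of these 4 genes. In the list, both luminal libraries were higher for 4 genes and both basal libraries for 5, beside 23.6% and 27.3% of all genes tested.

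The mitochondrial citrate genes, included because zinc and citrate are both features of prostate secretion, had small fitted changes. None of the 6 passed the adjusted limma test and the median was -0.34, with Cs, the citrate synthase, at 1910 and 1858 in basal and 1317 and 1278 in luminal cells (log2 fold change -0.54 ± 0.23; limma adjusted p = 0.289). Idh3a (-0.53) and Idh2 (-0.34) followed. Metallothioneins also respond to glucocorticoids and to stress, so both were measured. None of 8 glucocorticoid-responsive genes passed, with a median of -0.31 and the largest changes in Nr3c1 (the receptor itself, -1.94 ± 0.44; limma adjusted p = 0.0846), Fkbp5 (0.94) and Per1 (-0.51). None of 14 dissociation stress genes passed, with a median of -0.84 and the largest changes in Ier3 (-1.38), Socs3 (-0.99) and Egr1 (-0.94). The stress genes summed to 369953 and 207478 in basal and to 138810 and 210970 in luminal replicates 3 and 2, so here too luminal replicate 3 was the lowest. The part of stress in the metallothionein values was not tested.

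**Figure D5:**
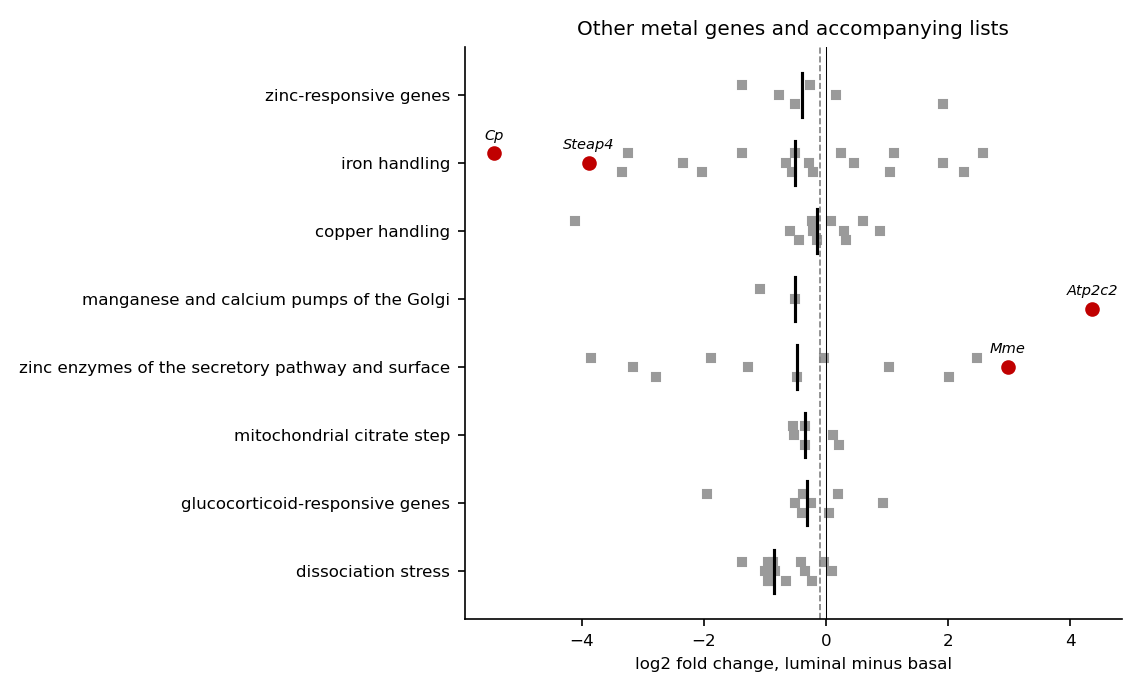
log2 fold changes (luminal minus basal) of the genes of 8 lists that passed the filter, with a black bar at each list's median and a dashed line at the median of all genes tested. Only Cp, Steap4, Atp2c2 and Mme (red) had a limma adjusted p under 0.05.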

How the data were processed

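RNA-seq signal per gene was analysed for 4 libraries, 2 basal and 2 luminal, grouped as labelled. The authors mapped reads to GRCm38 with STAR, counted genes with HTSeq and deposited the signal as normalized values rounded to whole numbers; all columns were mapped, leaving 0 unmapped. Whether duplicates were removed is not given in the sources used here. Low values (up to 60 reads) lay within 0.6 of a multiple of the value of 1 read in 97.9% to 99.0% of cases, which gave recovered reads. Values on another spacing were found in 533 genes, none a member. These genes were not removed from the fits over all genes, and the cause of their spacing was not tested. Symbols, exons and coordinates came from GENCODE M21, and promoters from RefSeq. limma 3.58.1 with a trended prior was the main test (pseudocount 1); edgeR 4.0.16 and DESeq2 1.42.0 (R 4.3.3) were run on recovered reads and called 948 and 819 genes. An exact permutation of 2 against 2 libraries gives no two-sided p below 0.333. Full statistics were given for members with an adjusted p under 0.05, past 2-fold at an average of 100 or more, or at an average of 1000 or more, with other members described more briefly; in other lists, genes past the adjusted p and the 3 largest changes at an average of 100 or more were named, and other genes there were chosen after their values were seen. Members, lists and tests were chosen with earlier results of these data known. Scripts were tested on simulated data. Alternatives changed the filter, pseudocount, scaling, prior, fold threshold and model, and left out each library. Other tools were numpy 2.4.6, pandas 2.3.3, scipy 1.17.1 and matplotlib 3.10.9.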

Additional observations from a re-analysis of the deposited data

How the results depend on the processing

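No paired analysis was possible because the groups share only 1 replicate number. Slc39a8 kept its direction under all 13 alternatives, with log2 fold changes from 3.41 to 4.20. Its adjusted p ranged from 1.52e-12 (DESeq2) to 0.228 (limma without a filter). Its call was lost without a filter (0 members called, and 0 of all genes by limma, with 4455 at an unadjusted p under 0.05). It was also lost without the trended prior (0 members, limma adjusted p = 0.0509) and when either luminal library was left out. Those last fits rest on the spread of the basal pair, moderated by the trended prior over all genes. Leaving out 1 library gave 3 to 8 members past 2-fold in luminal and 2 to 6 in basal cells. It gave 8 to 16 with luminal and 8 to 12 with basal libraries above, and medians from -0.10 to 0.33. With 1 library fewer, groups overlap less readily for any gene, and the median of all genes ranged from -0.23 to 0.16. Shares of all genes past 2-fold or without overlap were not computed for the alternatives. Members past 2-fold in luminal cells numbered 1 with the filter in both groups, 7 without a filter and 7 after rescaling to nuclear protein-coding genes; at 4-fold, 0 were higher in basal cells. That rescaling shifted the median log2 fold change over all genes tested to 0.22 (from -0.10) and the members' median to 0.40 (from 0.09). This left the members 0.18 above all genes, against 0.19 as deposited. With the filter in both groups the members were not above, with a median of -0.11 beside -0.08 for all genes. The rescaling to nuclear protein-coding genes had further effects. It reversed Mt1 (0.0454), Mtf1 (0.0785) and Slc30a9 (0.0343). Mt1 was also reversed by quantile normalization (0.0647), edgeR (0.0630) and DESeq2 (0.0905), and Slc39a11 by quantile normalization (-0.0088). Leaving out 1 library at a time gave both signs for Mt1 (-1.32 to 0.79), Mt2 (-0.47 to 0.81), Mtf1 (-0.75 to 0.29), Slc39a6 (-0.68 to 0.71), Slc39a11 (-1.20 to 1.54), Slc39a13 (-1.44 to 0.0504) and Slc30a6 (-0.56 to 0.92), always with luminal replicate 3 or 2 left out at the extremes. The other 16 members kept their sign throughout. Without the trended prior limma called 544 genes and with the filter in both groups 678, against 130; pseudocount 10 called 531 and quantile normalization 381. The cause of these changes was not tested. At the depth of the luminal libraries, members with a few reads (Slc39a4, Slc30a2 and Slc30a10) had wide intervals.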
